A study of Mus musculus with 24 samples.

Results

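Notch1, Notch2 and Hes5 are 3 genes of the Notch pathway with a peak in a table of RNA recovered with STAU2 from the developing mouse cortex. They were chosen by gene symbol and make up 3 of 7970 genes and 3 of 14297 gene rows, since each had exactly 1 row (1 peak on 1 strand). STAU2 is a double-stranded RNA-binding protein of neural cells. RNA immunoprecipitation with an antibody against it was carried out on brain cortex of C57BL/6 embryos at 4 stages, E11.5, then E13.5, then E15.5 and last E17.5, with 3 libraries per stage, and the series asks how the bound RNAs differ between these stages. The labels name no other genotype or treatment, and do not say whether the libraries came from separate animals or pools, so a p-value here reflects only how far these libraries spread. The labels also describe 3 inputs per stage, which were not analysed here. A difference between stages can therefore be one in the amount of an RNA or one in its binding, and these cannot be told apart. In this bulk tissue, fewer cells of a type and less RNA per cell cannot be told apart either.

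Notch receptors sit on the cell surface and are cut when a ligand on a neighbouring cell binds them. The released intracellular domain enters the nucleus, joins the DNA-binding protein Rbpj and switches on repressor genes of the Hes family. In the embryonic cortex, Notch signalling is known for keeping radial glia, the neural stem cells, in a progenitor state, and Hes5 is a classic target that represses proneural genes.

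All 3 peaks lay in the last exon of their gene, at different places relative to the end of the coding sequence. Positions are on mm10, which is GRCm38, and exons are those of GENCODE vM21. The Notch1 peak (chr2:26459412-26459898, minus strand, 487 bases) lay in exon 34 of 34 and was called 3' UTR in the deposited table. By the annotation, 365 of its bases were coding (codons 2410 to 2531 of 2531), followed by the stop codon and 119 bases of 3' UTR. The Notch2 peak (chr3:98146920-98147230, plus strand, 311 bases), called Exon, lay in exon 34 of 34 and was wholly coding (codons 2300 to 2403 of 2473). The Hes5 peak (chr4:154962202-154962500, plus strand, 299 bases), called 3' UTR, lay in exon 3 of 3. Its first 170 bases were 3' UTR and its last 129 bases reached past the annotated end of the mRNA.

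The end of the coding sequence under the Notch1 peak is shown because this peak, called 3' UTR, is mostly coding. It is 300 bases, read 5' to 3' on the gene's strand (chr2:26459534-26459833, minus strand), with the last codon before the stop codon in capitals. The sequences were read from the GENCODE transcripts. The other sequence is the last 30 bases of the annotated Hes5 mRNA (chr4:154962342-154962371, plus strand), inside the peak, with the hexamer AATAAA in capitals.
Notch1: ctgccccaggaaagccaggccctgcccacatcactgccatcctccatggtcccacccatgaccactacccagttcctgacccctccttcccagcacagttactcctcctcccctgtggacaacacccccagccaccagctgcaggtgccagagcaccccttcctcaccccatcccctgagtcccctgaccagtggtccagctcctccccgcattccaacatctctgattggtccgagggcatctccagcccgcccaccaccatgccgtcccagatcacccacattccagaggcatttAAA
Hes5: gaaggcttctAATAAAatatcaagccctcc

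The Notch1 stretch shown ends at codon 2531, the last of the gene. The Hes5 hexamer, searched as AATAAA on the mRNA strand, began 20 bases from the mRNA's 3' end. Of 7680 transcripts with gene rows, 62.6% held the same hexamer in their last 40 bases, so its presence is common.

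A peak in the last exon is likewise common in this table. Of 12866 gene rows on protein-coding transcripts, 45.4% lay in the last exon, 10.2% covered the stop codon as the Notch1 peak does, and 13.1% reached past the annotated 3' end as the Hes5 peak does. Of 6619 rows called 3' UTR on such transcripts, 2338 held coding bases. The table's call for Notch1 is thus one of many that mix coding sequence and UTR.

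**Figure D1:**
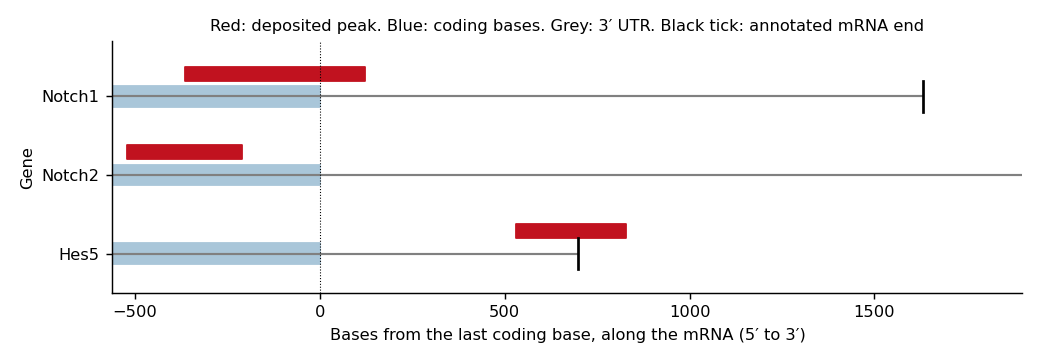
Positions of the 3 peaks along the mRNA, in bases from the last coding base (x axis), with one gene per line. The Notch1 peak runs from 364 bases before the last coding base to 122 after it, the Notch2 peak ends 211 bases before it, and the Hes5 peak starts 530 bases after it and passes the mRNA end at 699. The Notch2 mRNA ends beyond the axis, at 2920.

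STAU2 binds double-stranded RNA, so predicted folding was computed for the central 150 bases of the Notch1 and Hes5 peaks within the mRNA (ViennaRNA, minimum free energy). Over 7739 gene rows with such a window, the median GC content was 50% and the median energy was -35.8 kcal/mol, with quartiles of -44.5 and -27.8. The Notch1 window had 65.3% GC and -34.1 kcal/mol. Among 366 rows within 2 percentage points of its GC content, the median was -52.6 kcal/mol, and 87.7% had an energy as low or lower. The Hes5 window had 46.7% GC and -39.4 kcal/mol, against -34.6 over 1186 rows, of which 22.4% were as low or lower. Relative to sequences of like base composition, the Notch1 window was predicted to fold more weakly than most and the Hes5 window more strongly than most. These are predictions for one window each, and no test was made.

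The libraries held 4688215 to 6374892 counts in gene rows. Values below are CPM (edgeR's library-size-scaled counts) of the gene-row counts after TMM scaling, a scaling by edgeR that centres the typical gene. Lists of 4 values run in stage order, from E11.5 to E17.5. Libraries of the first stage stood apart, with TMM factors of 0.477 to 0.596 against 1.16 to 1.39 at later stages. Scaling by the plain total of the gene rows raised the median log2 change of all genes from 0.04 to 1.22 for E13.5 against E11.5, from 0.05 to 1.42 for E15.5 against E11.5 and from 0.03 to 1.23 for E17.5 against E11.5. Scaling by the total over all peaks gave 1.27, 1.43 and 1.01. Comparisons with E11.5 are therefore read relative to the typical gene, and a direction that turns with the scaling is named beside its result.

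The Notch1 receptor peak was high at E13.5 and E15.5 and low at E11.5 and E17.5. At E11.5 the libraries of replicates 1, 2 and 3 held 179, 73 and 119 counts, which are 53.4, 27.7 and 45.9 CPM. At E13.5 they held 1109, 1500 and 641 counts, or 153.9, 214.5 and 83.2 CPM. The 3 values at E15.5 were 1311, 1613 and 1178 counts, or 159.6, 217.2 and 132.6 CPM. At E17.5 the values were 138, 302 and 257 counts, or 22.8, 53.6 and 40.6 CPM. Every library of the middle stages lay above every library of E11.5 and E17.5, while E13.5 overlapped E15.5 and E11.5 overlapped E17.5. Replicate 2 was the highest library at E13.5, E15.5 and E17.5 and the lowest at E11.5.

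Stage means for Notch1 were 42.4 ± 13.2, 150.5 ± 65.7, 169.8 ± 43.2 and 39.01 ± 15.47 CPM (SD, n = 3). Over the 4 stages the edgeR quasi-likelihood F test gave an adjusted p of 0.000146. Notch1 rose from E11.5 to E13.5 by 1.83 ± 0.39 on the log2 scale (log2 change ± SE; 3.55-fold; edgeR adjusted p = 0.0028). It fell from E15.5 to E17.5 by 2.12 ± 0.38 (edgeR adjusted p = 0.00141), a 4.35-fold drop. Both calls remained in every fit with 1 of the 12 libraries left out, and with replicate 2 of every stage left out the rise was 1.27 (edgeR adjusted p = 0.0196). E15.5 did not differ from E13.5 beyond the spread (0.17 ± 0.37, edgeR adjusted p = 0.942). E17.5 was at -0.12 ± 0.38 against E11.5 (edgeR adjusted p = 0.795), a sign that turned with scaling by gene-row totals (1.07, adjusted p = 0.0206) or by all-peak totals (0.82, adjusted p = 0.0594). It also turned without E11.5 replicate 1 (0.08) and without E17.5 replicate 1 (0.15).

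The Notch2 receptor peak was likewise high at E13.5 and E15.5, with its lowest values at E11.5. At E11.5 its libraries held 20, 16 and 16 counts, or 5.97, 6.07 and 6.18 CPM. The libraries of E13.5 held 328, 302 and 381 counts, or 45.5, 43.2 and 49.4 CPM. Those of E15.5 held 273, 408 and 296 counts, or 33.2, 55.0 and 33.3 CPM. Those of E17.5 held 66, 56 and 97 counts, or 10.9, 9.95 and 15.3 CPM. E13.5 overlapped E15.5, and no other pair of stages overlapped. E15.5 replicate 2 was the highest of the 12 libraries, as it was for Notch1.

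Stage means for Notch2 were 6.07 ± 0.10, 46.1 ± 3.15, 40.5 ± 12.5 and 12.1 ± 2.87 CPM (SD, n = 3). The F test over the stages gave an adjusted p of 1.85e-06 in edgeR. Notch2 rose by 2.92 ± 0.31 from E11.5 to E13.5, which is 7.57-fold (edgeR adjusted p = 8.97e-06). It fell by 1.74 ± 0.28 from E15.5 to E17.5, a 3.35-fold drop (edgeR adjusted p = 0.000522). At E15.5 it was at -0.19 ± 0.26 against E13.5 and did not pass (edgeR adjusted p = 0.904). It was higher at E17.5 than at E11.5 (0.99 ± 0.31, edgeR adjusted p = 0.0118), a call that ended without E17.5 replicate 3 (0.78, adjusted p = 0.0579). Whether Notch1 and Notch2 differ in this comparison was not tested.

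The peak of Hes5, the target gene, had its highest values at E11.5 and its lowest at E17.5. At E11.5 the libraries held 50, 42 and 47 counts, or 14.9, 15.9 and 18.1 CPM. At E13.5 they held 88, 47 and 103 counts, or 12.2, 6.72 and 13.4 CPM. Those of E15.5 held 90, 40 and 64 counts, or 10.96, 5.39 and 7.20 CPM. At E17.5 the values were 28, 20 and 45 counts, or 4.63, 3.55 and 7.11 CPM. E11.5 lay above every library of the later stages, and the later stages overlapped their neighbours. Replicate 2 was the lowest library at each of the 3 later stages.

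Stage means for Hes5 were 16.3 ± 1.64, 10.8 ± 3.55, 7.85 ± 2.84 and 5.10 ± 1.82 CPM (SD, n = 3). The F test gave an adjusted p of 0.00882 in edgeR, and of 0.10 with scaling by gene-row totals. No step between neighbouring stages passed the test. The values were -0.60 ± 0.37 for E13.5 against E11.5 (edgeR adjusted p = 0.257), -0.45 ± 0.36 for E15.5 against E13.5 (0.795) and -0.62 ± 0.38 for E17.5 against E15.5 (0.269). Over the whole span, Hes5 fell by 1.67 ± 0.39 from E11.5 to E17.5 (3.18-fold; edgeR adjusted p = 0.00159). That change was -0.45 (adjusted p = 0.322) under gene-row totals and -0.67 (adjusted p = 0.168) under all-peak totals, neither past the threshold. Against E11.5, Hes5 was at -1.05 ± 0.37 at E15.5 (edgeR adjusted p = 0.0348), but at 0.34 and 0.35 under the plain totals. The value for E13.5 likewise turned to 0.60 and 0.65. The fall in Hes5 from E11.5 is thus one relative to the typical gene of these libraries.

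**Figure D2:**
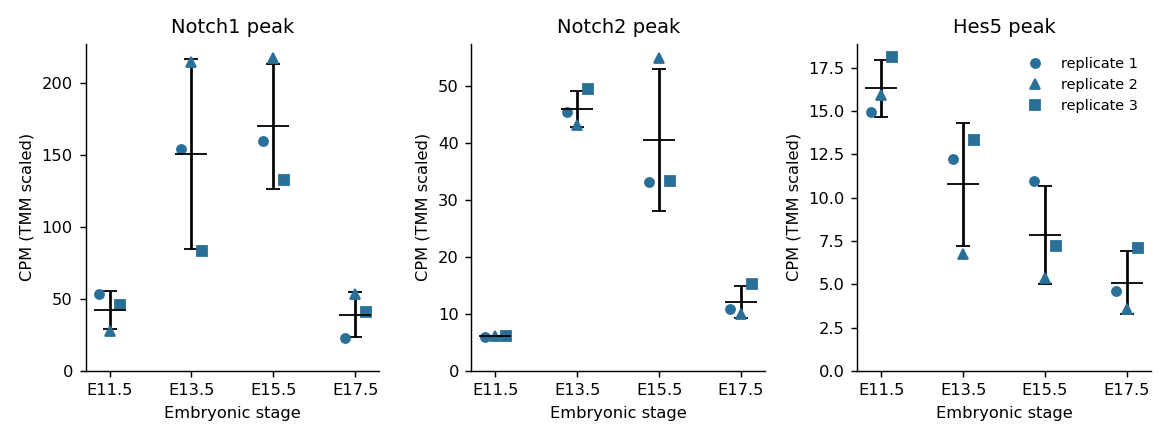
CPM after TMM scaling (y axis, from 0) of the Notch1, Notch2 and Hes5 peaks at 4 embryonic stages (x axis). Symbols are single libraries by replicate number, and the horizontal line with its bar is the mean ± SD of 3 libraries. Notch1 and Notch2 are high at E13.5 and E15.5, and Hes5 is highest at E11.5.

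From E13.5 to E17.5, the direction did not turn with the scaling for any of the 3 genes. Notch1 fell by 1.95 ± 0.38, Notch2 by 1.93 ± 0.28 and Hes5 by 1.07 ± 0.38 (edgeR adjusted p = 0.000991, 8.56e-05 and 0.0354). The plain totals gave -1.91 and -2.19 for Notch1, -1.90 and -2.18 for Notch2, and -1.05 and -1.32 for Hes5. The Hes5 call ended without E13.5 replicate 1 or 3 or E17.5 replicate 1 or 2 (highest adjusted p = 0.127). From E11.5 to E15.5, Notch1 rose by 2.0 ± 0.39 and Notch2 by 2.73 ± 0.31 (edgeR adjusted p = 0.000766 and 7.23e-06). The Hes5 call in that pair ended without any 1 of the E11.5 libraries, without E15.5 replicate 2 or 3, and without replicate 2 of every stage (adjusted p = 0.12), with 0.122 the highest adjusted p over single libraries.

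**Figure D3:**
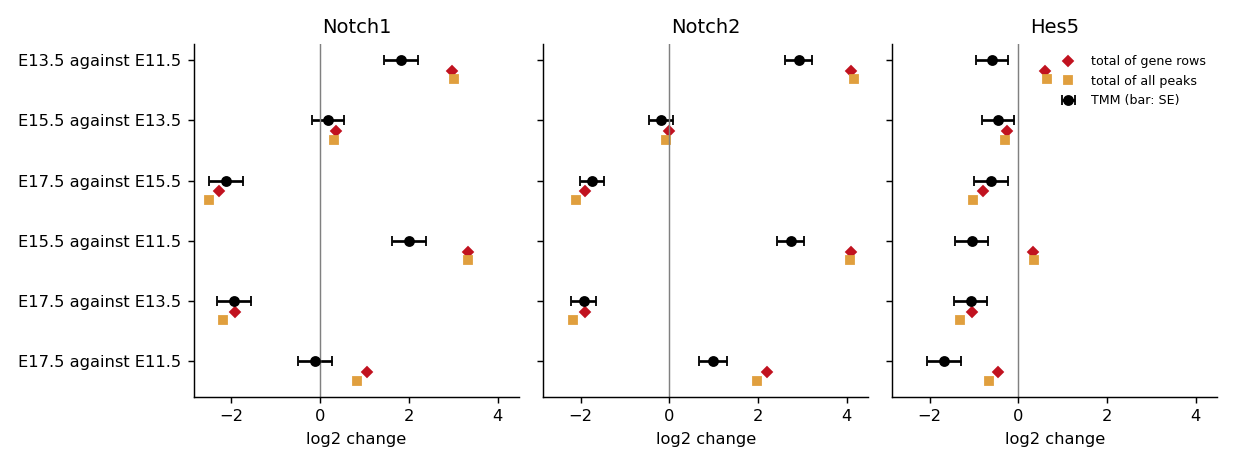
Log2 changes (x axis) of Notch1, Notch2 and Hes5 for the 6 pairs of stages (y axis). Black points with bars are TMM-scaled values ± SE, red diamonds use the total of gene rows and orange squares the total of all peaks. For Hes5 the values against E11.5 sit on either side of 0 for E13.5 (-0.60 against 0.60 and 0.65), while all 3 scalings give a lower value at E17.5 than at E13.5.

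Read against the whole table, changes over the stages were common. The F test called 3 of the 3 genes, where it called 53.7% of the 7876 genes tested. For E13.5 against E11.5, 2 of 3 were higher and 0 lower, against 12.7% and 11.9% of all genes. For E15.5 against E13.5, 0 of 3 were called in either direction by edgeR, 0 at an unadjusted p under 0.05 and 0 by DESeq2, where 0.178% of all genes were higher and 0.495% lower. For E17.5 against E15.5, 0 were higher and 2 lower (9.37% and 11.1% of all genes). Between the outer stages, E17.5 against E11.5, 1 was higher and 1 lower (28.8% and 29.0%). For E15.5 against E11.5 the counts were 2 higher and 1 lower (19.7% and 18.6%), and for E17.5 against E13.5 all 3 were lower (18.6%). Fitting each peak as a feature called 3 of 3 over the stages, against 46.6% of 14106 peaks, and moved no log2 change of these genes by more than 0.04.

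The split between higher and lower calls over all genes turned on the scaling. Under TMM, gene-row totals and all-peak totals, the higher genes made up 51.5%, 97.4% and 97.6% of calls for E13.5 against E11.5. They made up 51.5%, 95.8% and 95.9% for E15.5 against E11.5, and 49.8%, 85.2% and 80.9% for E17.5 against E11.5. Among later stages the shares were 26.4%, 50% and 42.9% for E15.5 against E13.5, 45.8%, 30.8% and 16.3% for E17.5 against E15.5, and 48.4%, 50.2% and 33% for E17.5 against E13.5.

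Ratios of counts within a library need no scaling between libraries and show how the receptors and Hes5 stood to each other. Notch1 had 1.74 to 3.58 times the counts of Hes5 in the E11.5 libraries, 6.22 to 31.9 times in those of E13.5, 14.6 to 40.3 times in those of E15.5 and 4.93 to 15.1 times in those of E17.5. For Notch2 the ranges were 0.34 to 0.40, 3.70 to 6.43, 3.03 to 10.2 and 2.16 to 2.8. Notch2 thus had fewer counts than Hes5 in all 3 E11.5 libraries and more in all 9 later ones. E13.5 replicate 2 had the highest ratio of Notch1 to Hes5 of its stage, as did E15.5 replicate 2 and E17.5 replicate 2. These ratios describe the libraries and were not tested.

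Per kilobase of peak, Notch1 had the highest mean of the 3 at every stage, at 87.0 ± 27.2, 309.1 ± 135.0, 348.7 ± 88.8 and 80.1 ± 31.8 CPM per kilobase (SD, n = 3). Notch2 was at 19.5 ± 0.33, 148.1 ± 10.1, 130.2 ± 40.2 and 38.8 ± 9.22. Hes5 was at 54.6 ± 5.51, 36.0 ± 11.9, 26.25 ± 9.502 and 17.1 ± 6.10, so it lay above Notch2 at E11.5 and below it later. By mean CPM of gene sums, Notch1 stood at the 69.2nd, 91.1st, 92.1st and 65.9th percentile of all genes, Notch2 at the 19.9th, 71.0th, 67.9th and 35.1st, and Hes5 at the 44.7th, 32.2nd, 24.5th and 17.1st.

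Of 76 genes listed for the Notch pathway by role, 43 had a peak and were tested, and 29 of these passed the F test over the stages (53.7% of all genes did). From E11.5 to E13.5, 15 of 43 rose and 3 fell, against 12.7% and 11.9% of all genes. The same comparison gave 33 rises and 1 fall under either plain total, where 97.4% and 97.6% of all calls were rises. From E15.5 to E17.5, 5 rose and 11 fell, against 9.37% and 11.1% of all genes, and with 1 library left out at a time this became 2 to 5 rises and 8 to 12 falls. The lowest count of rises came without E15.5 replicate 3 and also without replicate 2 of every stage. Gene-row totals gave 2 rises and 12 falls in this last step, and all-peak totals 2 and 14. Of all calls, 30.8% and 16.3% were rises there. Under TMM scaling, the median log2 change of the 43 genes was 0.20 in the first step and -0.16 in the last. The median of all genes was 0.04 and 0.00. From E13.5 to E15.5, edgeR called 0 of 43 higher and 1 lower (0.178% and 0.495% of all genes), with 5 of 43 at an unadjusted p under 0.05, and DESeq2 called 1 higher and 1 lower. Hes1, the other main Hes gene of radial glia, and the ligand Dll1 were not analysed here.

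Of the other receptors, Notch3 (0.47, edgeR adjusted p = 0.327) and Notch4 (-0.10, 0.854) did not pass for E13.5 against E11.5 under TMM scaling. All 4 receptors were called higher under either plain total, as were 5172 (gene-row totals) and 5273 (all-peak totals) of the 7876 genes tested. Notch3, known from mural cells of vessels as well as neural progenitors, was at 28.1 ± 6.11, 38.9 ± 6.95, 27.9 ± 10.1 and 9.63 ± 3.77 CPM (SD, n = 3). It fell by 1.53 ± 0.34 from E15.5 to E17.5 (edgeR adjusted p = 0.00537), a call that ended with replicate 2 of every stage left out (adjusted p = 0.0619). Notch4, known as an endothelial receptor, was at 7.35 ± 1.19, 6.81 ± 0.60, 8.64 ± 1.40 and 6.63 ± 1.15 CPM and did not pass the F test (edgeR adjusted p = 0.658). Of the 4 receptors, 3 fell from E15.5 to E17.5, against 11.1% of all genes.

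All 5 ligands with a peak passed the F test, in different directions, as did 53.7% of all genes. Dll3, a ligand-like protein of the Delta family that acts within the cell, was high at the same stages as Notch1 and Notch2, at 11.7 ± 3.11, 50.6 ± 3.11, 42.6 ± 1.43 and 19.4 ± 1.36 CPM (SD, n = 3). It rose by 2.10 ± 0.26 from E11.5 to E13.5 and fell by 1.13 ± 0.24 from E15.5 to E17.5 (edgeR adjusted p = 4.03e-05 and 0.00402). Dlk1, a Delta-like protein without the usual receptor-binding domain, had 47, 21 and 36 counts in the E11.5 libraries, 8, 5 and 18 in those of E13.5, 0, 0 and 1 in those of E15.5 and 0 in each E17.5 library. In edgeR it was the 1 pathway gene called between E13.5 and E15.5 (adjusted p = 0.0425). That call ended under the plain totals (0.0593 and 0.0577), without any 1 of the E11.5 or E15.5 libraries, and without E13.5 replicate 1 or 3 (highest adjusted p = 0.211). In the same step Tle2, a corepressor gene, did not pass in edgeR with TMM (1.60 ± 0.39, adjusted p = 0.102) but did in DESeq2 (0.01) and with gene-row totals (0.0459). Dlk2, the relative of Dlk1, rose by 2.87 ± 0.49 from E15.5 to E17.5 (edgeR adjusted p = 0.000902). It reached 66, 93 and 161 counts at E17.5 from 2, 0 and 1 at E11.5.

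Among genes of receptor processing, Ncstn, the nicastrin subunit of gamma-secretase, was high at the same stages as Notch1 and Notch2. It rose by 1.92 ± 0.32 from E11.5 to E13.5 and fell by 1.32 ± 0.31 from E15.5 to E17.5 (edgeR adjusted p = 0.000527 and 0.0073), from 24.48 ± 9.005 CPM (SD, n = 3) at E11.5 to 92.1 ± 10.8, 100.8 ± 33.2 and 40.5 ± 10 CPM. Adam10, the protease that makes the first cut after ligand binding, was at 47.9 ± 12.1, 42.7 ± 5.97, 33.1 ± 9.67 and 14.9 ± 2.45 CPM. It fell by 1.15 ± 0.29 from E15.5 to E17.5 (edgeR adjusted p = 0.0104), a call that ended without E17.5 replicate 1 (adjusted p = 0.0519). Mfng, a fringe glycosyltransferase, fell by 1.33 ± 0.39 in the same step (edgeR adjusted p = 0.0254), which ended without E15.5 replicate 1 or 3 or E17.5 replicate 1 or 2 (highest adjusted p = 0.0889). In this role 0 of 8 genes rose and 4 fell from E15.5 to E17.5, against 9.37% and 11.1% of all genes.

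In the group of endocytosis, trafficking and turnover, 3 of 6 genes rose and 0 fell in that last step (9.37% and 11.1% of all genes), and under either plain total the 1 called rise was that of Mib2, with Numb called lower under all-peak totals (-1.09, adjusted p = 0.0248). The ubiquitin ligase gene Mib2 rose at the first and the last step, from 7.14 ± 2.93 CPM (SD, n = 3) at E11.5 to 19.6 ± 6.68, 27.1 ± 5.33 and 103.2 ± 13.4, with a last step of 1.93 ± 0.32 (edgeR adjusted p = 0.000664). Nedd4l, another ubiquitin ligase gene, rose by 1.43 ± 0.24 from E11.5 to E13.5 (edgeR adjusted p = 0.000422). Its last step of 0.66 ± 0.23 (edgeR adjusted p = 0.0492) lost its call without any 1 of the 12 libraries and under the plain totals (adjusted p = 0.198 and 0.549). The other call, Dtx4 at 1.19 ± 0.35 (edgeR adjusted p = 0.0239), named after its values were seen, ended under the plain totals (0.0577 and 0.128). It also ended without E15.5 replicate 2 or 3 or E17.5 replicate 1 or 2. Numbl was at 24.5 ± 2.90, 42.9 ± 2.77, 59.4 ± 11.3 and 79.0 ± 9.14 CPM, and rose by 1.69 ± 0.24 from E11.5 to E17.5 (edgeR adjusted p = 2.54e-05). Its relative Numb, an inhibitor of Notch, was at 23.7 ± 5.35, 21.2 ± 4.63, 18.5 ± 4.93 and 11.3 ± 2.73 CPM. The Numb change from E11.5 to E17.5 was -1.07 ± 0.31 under TMM scaling (edgeR adjusted p = 0.00808), but 0.12 and -0.10 under the plain totals and not called there, nor with replicate 2 of every stage left out (adjusted p = 0.0611).

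In the nuclear complex, Rbpj, the DNA-binding partner of the cut receptor, fell in the last step. It was at 126.7 ± 17, 118.4 ± 6.16, 116.1 ± 8.18 and 49.2 ± 8.40 CPM (SD, n = 3), a fall of 1.24 ± 0.23 from E15.5 to E17.5 (edgeR adjusted p = 0.00144). Over the longer span from E11.5 to E17.5, the corepressor genes Tle2 and Spen rose by 5.05 ± 0.60 and 2.19 ± 0.29 (edgeR adjusted p = 4.03e-06 and 1.13e-05). The Tle2 change starts from 1, 0 and 2 counts. In the last step alone, 1 of the 15 nuclear genes was called higher and 1 lower, against 9.37% and 11.1% of all genes. Of 15 nuclear genes, 6 passed the F test, a share no higher than the 53.7% of all genes.

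All 4 measured genes of the Hes antagonist and proneural group passed the F test, as did 53.7% of all genes. Neurod1, a factor of intermediate progenitors and young neurons, rose by 2.17 ± 0.32 from E11.5 to E13.5 and fell by 1.68 ± 0.30 from E15.5 to E17.5 (edgeR adjusted p = 0.000189 and 0.00138). Neurog1, a proneural gene, was at 38.6 ± 14.0, 83.8 ± 22.6 and 75.7 ± 23.4 CPM (SD, n = 3) before dropping to 2.74 ± 0.87 at E17.5, and fell by 4.78 ± 0.41 in the last step (edgeR adjusted p = 4.08e-06). Hes6, which opposes Hes1, was at 8.54 ± 3.21, 20.7 ± 4.78, 21.4 ± 8.35 and 20.3 ± 5.48 CPM. It rose by 1.27 ± 0.38 from E11.5 to E13.5 (edgeR adjusted p = 0.0228), a call that ended without E11.5 replicate 2, E13.5 replicate 2, or replicate 2 of every stage (adjusted p = 0.187).

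**Figure D4:**
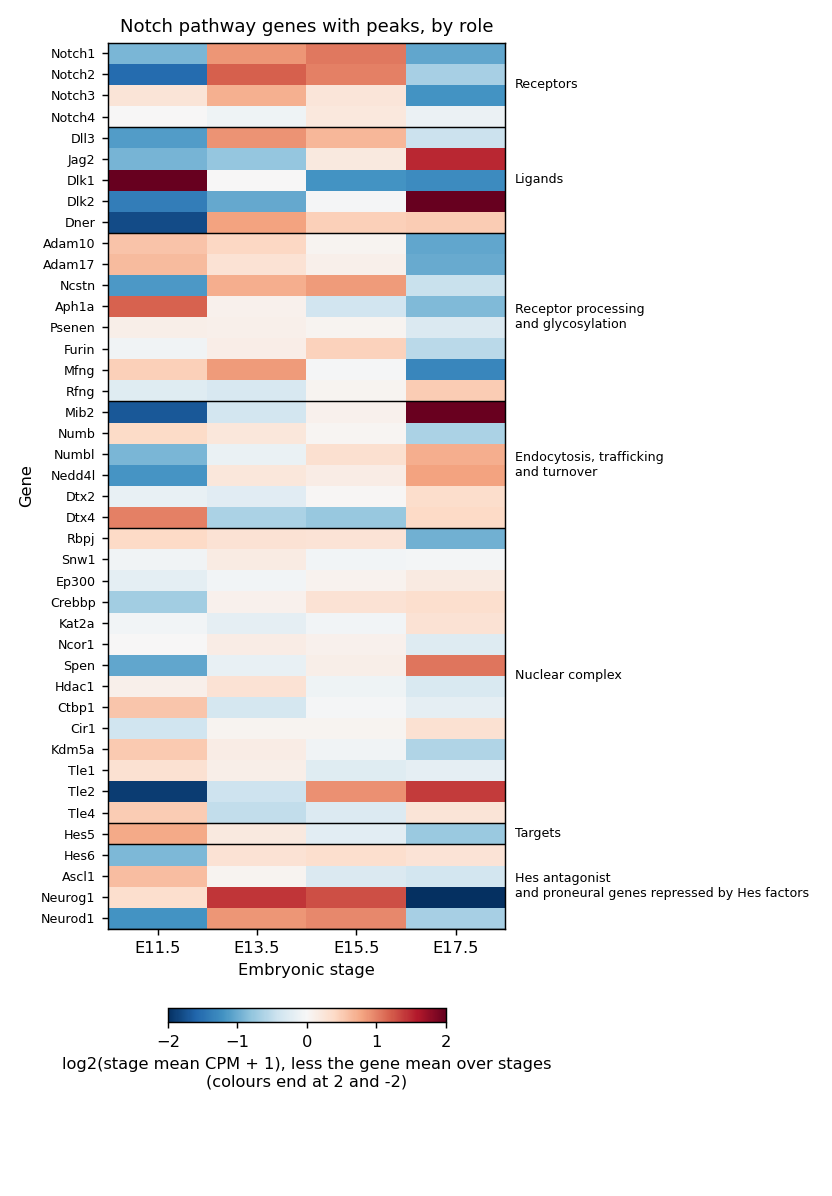
Stage means of 42 of the 43 Notch pathway genes with a peak (y axis, ordered by role) at 4 stages (x axis), as log2(mean CPM + 1) less the gene's own mean over the stages; the colours end at 2 and -2. Notch1, Notch2, Dll3, Ncstn and Neurod1 are high at E13.5 and E15.5, and Mib2, Dlk2 and Tle2 are highest at E17.5.

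Across the 12 libraries, log2 CPM of Notch1 and Notch2 had a Pearson correlation of 0.843. Notch1 and Hes5 were at -0.092, and Notch2 and Hes5 at -0.224. The libraries share stages and scaling, so these are descriptions. Among 3909 named genes with a mean of at least 20 CPM, the profile most like Notch1 was that of Tmem176b, a membrane protein gene (r = 0.969), followed by Neurod1 (0.948) and Ptk7, which encodes a receptor-like kinase without activity (0.934). For Notch2 they were Igsf8 (0.969), Dll3 (0.964) and Tmem131 (0.961). For Hes5 they were Nap1l1, which encodes a histone chaperone (0.960), Nelfa (0.949) and Gkap1 (0.944). Igsf8 was at 12 ± 2.84, 141.0 ± 31.2, 120.0 ± 15.2 and 29.2 ± 9.86 CPM (SD, n = 3), close in shape to Notch2.

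Cell type markers moved with stage in the same libraries. The summed CPM of 4 of 5 intermediate progenitor markers, Neurod1 among them, ranged over the libraries from 139 to 147, 401 to 517, 414 to 536 and 109 to 119. These sums were highest at E13.5 and E15.5, as were Notch1 and Notch2. At the outer stages, under TMM scaling, the sums were lower at E17.5 than at E11.5. Notch2 was higher at E17.5 and Notch1 overlapped. The single markers were split there, with 1 of 4 called higher and 1 lower (median log2 change 0.152), against 28.8% and 29.0% of all genes. The sums are not given under the plain totals, and how these markers and Notch2 compare in that pair was not tested. For 8 of 12 radial glia markers the summed CPM was 838 to 1271, 840.3 to 1180, 832 to 918 and 803 to 1202. The sums thus overlapped, but the single genes did not stay level. Fabp7, which marks radial glia, went from a mean of 111.1 CPM at E11.5 to 869.9 at E17.5. From E15.5 to E17.5, 5 of the 8 fell and 1 rose (median log2 change -1.77), against 11.1% and 9.37% of all genes. From E13.5 to E17.5, 6 of 8 fell and 2 rose (median -2.09). Of all genes, 18.6% fell, and 48.4% of the calls over all genes were rises. Most radial glia markers thus fell toward E17.5, as Notch1 and Notch2 did. From E11.5 to E13.5, where Notch1 and Notch2 rose, 2 of the 8 rose and 2 fell (median 0.155), against 12.7% and 11.9% of all genes. For 7 of 9 neuronal markers the summed CPM went from 250.3 to 270.2 at E11.5 to 3782 to 4141 at E17.5. For 4 of 12 endothelial markers the ranges were 20.8 to 40.3, 23.6 to 59.3, 19.7 to 21.6 and 7.10 to 11.53, and Pecam1, Flt1 and Cldn5 had no row analysed here. The only mural marker with a row was Notch3 itself. The 8 of 8 meningeal markers summed to 8174 to 8736 at E11.5 and 22.3 to 32.4 at E17.5. For 2 of 5 choroid plexus markers the sums were 11.2 to 19.0, 444 to 571, 59.1 to 116 and 1.24 to 2.98. As a look at the labelled tissue, 6 of 7 cortical genes summed to 1661 to 2233 at E11.5 and 1344 to 1576 at E17.5. Here too the single genes did not stay level, with log2 changes from -4.17 to 4.11 for E17.5 against E11.5. Of these genes, 2 were called higher and 2 lower, against 28.8% and 29.0% of all genes. The part of any of these markers in the results for Notch1, Notch2 and Hes5 was not tested.

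Counts also lay on the strand opposite Notch1 within its peak. Library preparation used ScriptSeq, a kit that marks the strand, and no source used here gives the strand setting of the counting. The deposited row on that strand, called Intergenic, held 10 to 716 counts per library. Intergenic counts were all even, and over the Hes5 peak and strand they were exactly double the gene row in 12 libraries. They were therefore halved here, a choice that sets every count and share below. So halved, the libraries of replicates 1, 2 and 3 held 7, 25 and 8 opposite counts at E11.5 and 71, 358 and 57 at E13.5. At the later stages they held 131, 214 and 89, then 5, 44 and 19. As a share of both strands, this was 11.7% to 25.5% in the replicate 2 libraries and 3.5% to 9.1% in the other 8. Pooled by stage it was 9.7%, 13%, 9.6% and 8.9%. For comparison, 3596 peaks had a gene row on 1 strand and an Intergenic row on the other. Over those with at least 20 counts in a library, replicate 2 libraries also had the higher median share, at 6.5% to 8.67% against 2.11% to 3.91%. The nearest antisense gene, 0610009E02Rik (chr2:26445696-26459390, plus strand), ends 22 bases from the peak.

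**Figure D5:**
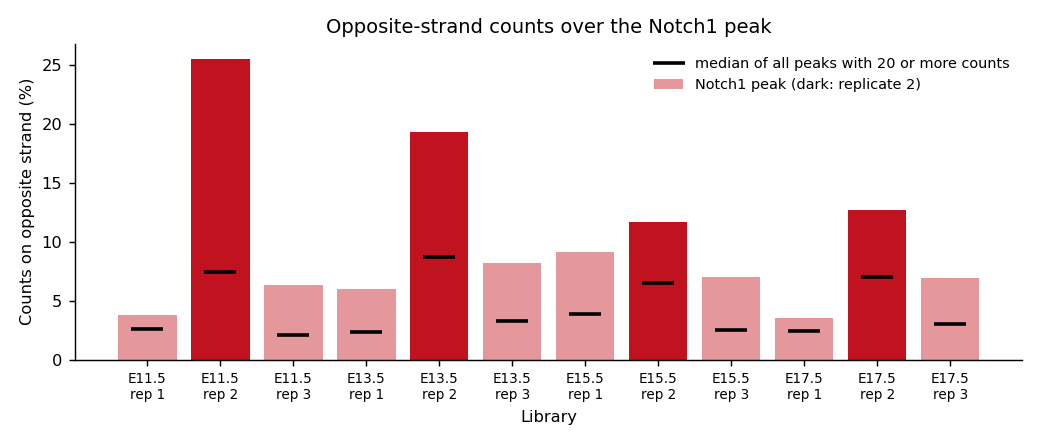
Share of counts on the strand opposite Notch1 within its peak (y axis, percent) in each of the 12 libraries (x axis). Counts on the opposite strand are the deposited Intergenic counts, halved. Bars are Notch1, dark for replicate 2. Black lines are the median over peaks with a gene row, an Intergenic row on the opposite strand and 20 or more counts in that library. The replicate 2 libraries have the highest share of their stage, up to 25.5%.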

How the data were processed

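RNA recovered with STAU2 antibody was measured in 12 libraries, 3 per stage. The authors deposited whole-number counts per peak and strand, with a peak score used here only to select peaks. The submitters' processing notes name HOMER 4.10, mm10 and GRCm38. Aligner and counting tool: not given in the sources used here. Column names carry a stage and a number shared by the label of a STAU2 library and that of its input, and were read as immunoprecipitations because the table lists peaks. All results rest on that reading. Of 18975 rows, 4513 were called Intergenic, with only even counts, and 165 others had no gene. Both kinds stayed out of the gene-row totals and were not tested. Totals over all peaks took them in, with Intergenic counts halved, and were 12472784 to 14044464 per library. The counts opposite Notch1 were halved likewise.

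Counts were summed per gene and fitted with edgeR 4.0.16 (R 4.3.3), with TMM scaling, filterByExpr (7876 genes kept), 1 quasi-likelihood fit over the 4 stages without a replicate block, and Benjamini-Hochberg adjustment at 0.05. The common dispersion corresponded to a coefficient of variation of 0.305. The procedure was tested on simulated data. DESeq2 1.42.0, other scalings, no filter, other row selections, a replicate block and leaving out libraries were alternatives. The planned test of shares between peaks of a gene was not run, since each gene had 1 peak. Folding used ViennaRNA 2.7.2. Sequences were read from the GENCODE vM21 transcripts.

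The genes and lists were chosen with earlier results of these data known. The text names Notch1, Notch2 and Hes5, the 3 pathway genes per role with the smallest F test p, Dll3, Rbpj and Numb, and the 3 genes most correlated with each (prior count 2, mean of at least 20 CPM, no unnamed gene models). One gene that the rule picks and 1 peak sequence are not reported here. The hexamer and the antisense gene were chosen after values were seen.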

Additional observations from a re-analysis of the deposited data

Results flagged for a closer look

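After halving of the deposited Intergenic counts, the strand opposite Notch1 within its peak held 1028 counts summed over the 12 libraries. This is a signal in rows that the comparisons between stages do not use. It lay above 0 in every library, and E13.5 replicate 2 had the highest count, 358.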

How the results depend on the processing

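Scaling changed part of the results against E11.5. The rises of Notch1 and Notch2 to E13.5 and E15.5 were called under all 3 scalings. Under gene-row and all-peak totals such calls were common: 5172 and 5273 of 7876 genes were called higher for E13.5. For E15.5 against E11.5 they were 5482 and 5466. With gene-row and all-peak totals, E17.5 against E11.5 was 1.07 and 0.82 for Notch1 and -0.45 and -0.67 for Hes5. Hes5 was at 0.60 and 0.65 for E13.5 and at 0.34 and 0.35 for E15.5 against E11.5, and single peaks gave the same reversed values for both genes. The Hes5 F test had an adjusted p of 0.10 with gene-row totals. The cause was not tested.

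With 1 library, or replicate 2 of every stage, left out, the Notch1 gene sum ranged from -0.12 to 0.50 for E15.5 against E13.5. For E17.5 against E11.5 it ranged from -0.67 to 0.15, and from -0.42 to 0.15 with only single libraries left out. The single-peak fits left out only 1 library at a time. They gave Notch1 ranges of -0.12 to 0.54 and -0.39 to 0.19 in these 2 comparisons. Notch2 ranged from 0.78 to 1.11 for E17.5 against E11.5. Hes5 ranged from -1.36 to -0.84 for E15.5 against E11.5 and from -1.39 to -0.87 for E17.5 against E13.5. The option without replicate 2 was added after seeing the data.

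Over all genes, 4228 were called over the stages, 6374 with all-peak totals and 2474 among peaks scoring above the median peak score, where fewer genes are tested. For E13.5 against E11.5 the 1937 calls became 5310, 5401 and 1161 with gene-row totals, all-peak totals and those peaks. For E15.5 against E11.5 the 3014 became 5723, 5702 and 1796. For E15.5 against E13.5 the 53 became 132 with DESeq2, 30 in those peaks and 11 to 54 with libraries left out. Those peaks gave 853, 2715 and 1608 for E17.5 against E15.5, E11.5 and E13.5, where 1610, 4549 and 2841 were called. Notch2 and Hes5 have peak scores (15.3 and 27.2) below the median of 30.3 and no value there.

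The replicate numbers did not pair the libraries throughout: 13 of 18 pairs with the same number had a correlation of deviations over 0.1 (range -0.179 to 0.555), and 4 of 12 libraries correlated best with their own number. These were the 4 of replicate 2, whose 6 pairs all lay between 0.181 and 0.555. The replicate block changed no call of the 3 genes, with Notch1 at 1.72 for E13.5 against E11.5 (adjusted p = 0.00297). Alternatives for shares between peaks were not run. Hes5 held 20 to 103 counts and Notch2 at E11.5 16 to 20.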
